A study of Homo sapiens with 27 samples.

Results

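The expression of 9 genes was followed in 4 lines of T47D cells: the steroid hormone receptors ESR1, PGR and NR3C1 and the luminal transcription factors FOXA1, XBP1, SPDEF, TFAP2A, TFAP2C and GRHL2. They were taken by gene symbol from the 26485 genes of the count file, and all 9 were among the 14789 genes that passed the filter on low counts. T47D is an established luminal breast cancer line that still expresses its own GATA3. Each mutant line was 1 puromycin-selected pool carrying a lentiviral pHAGE vector with a Ty1-tagged GATA3 truncation, either the splice site deletion (Splice del) or the C321fs or A333fs frameshift, and the control pool carried the empty vector. RNA was sequenced from 3 libraries of each line, 12 in all. The labels number the libraries of a line, and the study calls them biological replicates without saying how they were grown, so p-values measure the spread between these libraries and the effect of a mutant and of its single pool cannot be told apart. The labels and the methods of the study name different culture media, and hormone content of the medium was not settled from either.

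Luminal breast cancer cells read estrogen through ESR1, the nuclear receptor that binds estradiol and then estrogen response elements in DNA. FOXA1 opens chromatin as a pioneer factor at many of the sites that ESR1 uses, GATA3 binds beside them, and TFAP2C is another factor found at these enhancers. PGR, the progesterone receptor, is a classical target of estrogen signaling, whereas the glucocorticoid receptor NR3C1 answers cortisol and shares its DNA element with PGR. XBP1, SPDEF and GRHL2 are known for secretory capacity, luminal differentiation and epithelial junctions, respectively.

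GATA3, the targeted gene, was detected in every library. Reads from the native gene and from the introduced coding sequence were counted together. Its level in CPM (counts scaled by library size and TMM factor) was 1247, 1339.7 and 1257 in the control libraries, 962, 992 and 1050.5 with Splice del, 1142, 1130.2 and 1155 with C321fs and 1016, 1006 and 1028 with A333fs. Against control the log2 fold change of Splice del was -0.36 ± 0.05 (SE, adjusted p = 3.3e-05), that of A333fs was -0.33 ± 0.05 (4.5e-05) and that of C321fs was -0.17 ± 0.05 (0.013). This total is no check of which mutant a library carries.

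Library totals ran from 27872208 to 36788024 counts. Control libraries stood apart in composition, with TMM factors of 0.884 to 0.943 against 1.01 to 1.05 in mutant libraries, and exonic GC content tracked with the differences from control (Spearman's rho over genes, which are not independent replicates, of -0.51, -0.55 and -0.67). Fold changes are given with this trend left in and, for the 9 genes, also after a per-library trend over exonic GC and gene length was taken out. Libraries of a line also differed in it. The slope of log2 CPM per 10 points of GC was 0.013 in C321fs replicate 1, against -0.115 and -0.117 in replicates 2 and 3. In Splice del replicate 3 it was -0.024, against -0.100 and -0.113 in replicates 1 and 2. Of the 30 luminal epithelial markers, which summed to 19571 to 24061 CPM without TMM factors, 28 were tested. The 22 basal markers summed to 290.2 to 344 CPM, the 21 fibroblast and endothelial markers to 45.3 to 62.6 CPM and the 19 leukocyte markers to 7.26 to 12.4 CPM. In bulk RNA, fewer cells of a type and less RNA per cell cannot be told apart.

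Levels were compared between genes per exon length, as RPKM, which scales counts by exon length and library size. XBP1 was the most abundant member in control cells at 1061 ± 48.4 RPKM (SD, n = 3), followed by SPDEF at 186 ± 15.0, FOXA1 at 141 ± 4.20 and PGR at 84.9 ± 7.08 RPKM. TFAP2C (48.2 ± 1.67 RPKM), GRHL2 (44.6 ± 0.775 RPKM), TFAP2A (38.1 ± 1.77 RPKM) and ESR1 (31.7 ± 1.76 RPKM) came next, and NR3C1 was far lower at 1.04 ± 0.0709 RPKM. XBP1 lay at the 99.6th percentile of tested genes by RPKM and NR3C1 at the 21.4th. Across the 4 lines the ends of this order held, with XBP1 highest and NR3C1 lowest in each. In the middle, ESR1 stood above TFAP2A in Splice del (37.1 ± 1.24 against 30.3 ± 0.808 RPKM) and A333fs cells (34.2 ± 1.304 against 25.7 ± 0.897 RPKM), the reverse of control, and GRHL2 stood above TFAP2C in Splice del (45.6 ± 0.825 against 38.6 ± 0.951 RPKM) and A333fs cells (44.1 ± 1.22 against 41.8 ± 1.08 RPKM). Pairs within their spread of each other were SPDEF (111 ± 4.42 RPKM) and FOXA1 (109 ± 2.01 RPKM) in A333fs cells, and in C321fs cells GRHL2 (48.5 ± 2.40 RPKM) and TFAP2C (47.9 ± 2.17 RPKM), and ESR1 (31.4 ± 2.27 RPKM) and TFAP2A (30.01 ± 0.708 RPKM).

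**Figure D1:**
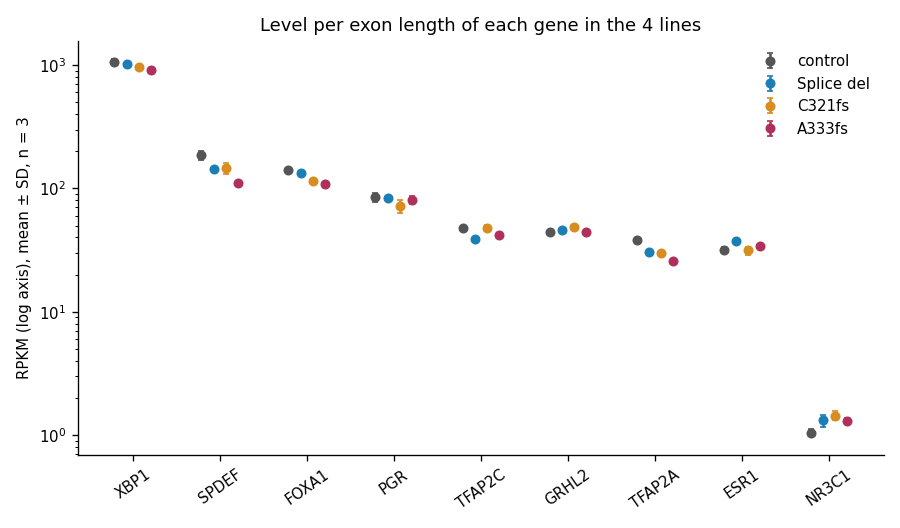
RPKM on a log axis for the 9 genes, ordered by their control level, with mean ± SD over 3 libraries of each line. XBP1 stands highest near 1061 RPKM and NR3C1 lowest near 1.04 RPKM in control cells, and no line moves either end of the order.

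Most members differed among the lines, by small amounts. In the F-test over the 4 lines 7 of 9 members passed an adjusted p of 0.01, all but PGR and GRHL2, against 56.2% of all tested genes. Against control, 5 members passed in Splice del cells (2 higher, 3 lower; 41.1% of all genes), 4 in C321fs cells (1 higher, 3 lower; 36.8%) and 6 in A333fs cells (1 higher, 5 lower; 47.4%). "Rose" and "fell" below mean an adjusted p under 0.01. With a fold change over 1.5 required as well, here named a call, SPDEF in A333fs cells was the only member called (1 of 9, against 12.3% of all genes). The edgeR test called 0 members in Splice del cells (10.7% of all genes) and 0 in C321fs cells (6.88%). DESeq2 called 0 in both, beside 807 genes up and 719 down in Splice del and 588 and 361 in C321fs cells. By edgeR 5 and 7 members had an unadjusted p under 0.05. The share of all genes under that limit was not counted, but 41.1% and 36.8% passed the stricter adjusted p of 0.01. The libraries did not overlap with control for 6 members (Splice del), 7 (C321fs) and 6 (A333fs), where 62.9%, 54.1% and 65.5% of all genes did not. The median log2 fold change of the members was -0.05, -0.14 and -0.20, beside 0.03, 0.02 and 0.01 over all genes.

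**Figure D2:**
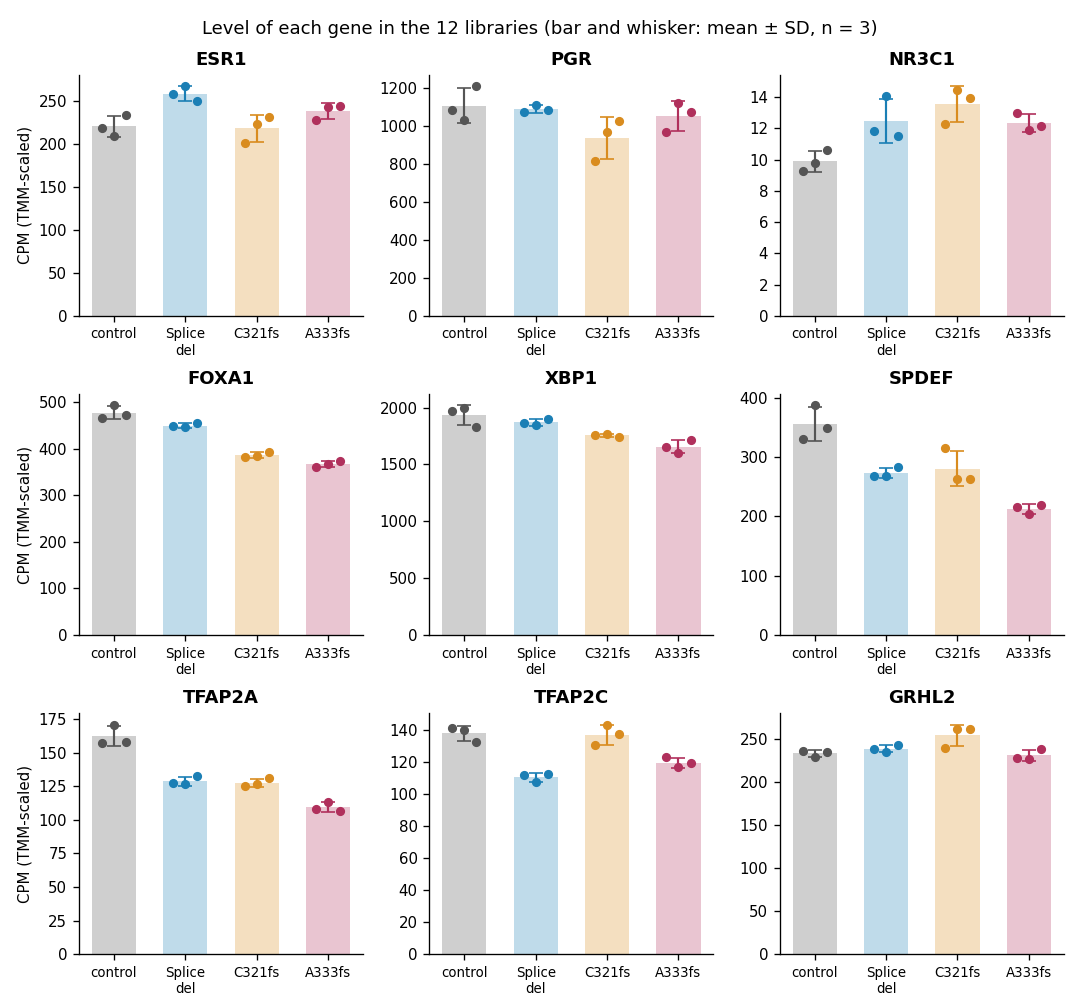
CPM of each gene in every library (points), with the mean as a bar and the SD over 3 libraries as a whisker, on axes that start at 0. SPDEF and TFAP2A are below control in all 9 mutant libraries and NR3C1 is above it in all 9. FOXA1 libraries of the 4 lines do not overlap, from 466 to 493 CPM in control down to 360.3 to 374 CPM in A333fs libraries. Neither Splice del against control nor A333fs against C321fs passed an adjusted p of 0.01 for FOXA1.

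ESR1 (chr6:151690496-152103273 in hg38 as the count file gives it, plus strand) passed the test in Splice del cells. It measured 219, 209 and 234 CPM in the control libraries, 259, 268 and 250.3 with Splice del, 201, 223 and 232 with C321fs and 228, 244 and 244 with A333fs. The 3 Splice del libraries were above all others, C321fs and control overlapped, and A333fs overlapped with control at its low end. ESR1 rose in Splice del by 0.23 ± 0.06 on the log2 scale (1.17-fold, adjusted p = 0.0047), whereas C321fs (-0.01, 95% interval -0.14 to 0.12) and A333fs (0.11, -0.02 to 0.24) did not pass. With the GC and length trend removed the value in Splice del was 0.09 ± 0.04 (adjusted p = 0.053) and no longer passed. It also missed the threshold without control replicate 1 (0.22, adjusted p = 0.017), control replicate 2 (0.19, 0.027), Splice del replicate 1 (0.23, 0.018) or Splice del replicate 2 (0.21, 0.028). The A333fs value turned to -0.03 with the trend removed, and passed under upper-quartile scaling (0.22, 0.0051) and with library sizes alone (0.26, 0.0033).

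PGR (chr11:101029624-101129813, minus strand) did not pass in any line by edgeR with all 12 libraries, the filter on low counts and the trend left in. It measured 1082, 1029 and 1209 CPM in the control libraries, 1073, 1112 and 1082 with Splice del, 815, 968 and 1028 with C321fs and 966, 1119.5 and 1071 with A333fs. C321fs replicate 1 was the lowest library, the highest C321fs library came just under the lowest control library, and the other lines overlapped with control. The log2 fold changes were -0.02 (95% interval -0.20 to 0.15), -0.24 (-0.41 to -0.07, adjusted p = 0.022) and -0.07 (-0.25 to 0.10) in Splice del, C321fs and A333fs cells. The C321fs value passed with DESeq2 (-0.25, adjusted p = 0.0078), with no filter on low counts (-0.24, 0.0031) and without C321fs replicate 3 (-0.31, 0.0068). PGR exons have a low GC content (41.6%, the 19.1st percentile of tested genes), and the lower quartile of genes near that content was above 0 in each comparison (0.10, 0.11 and 0.16). With the trend taken out PGR was lower than control in every mutant line, at -0.26 ± 0.04 (Splice del, adjusted p = 1.55e-05), -0.40 ± 0.04 (C321fs, 2.3e-07) and -0.33 ± 0.04 (A333fs, 1.7e-06). Some 737 of its 13037 exonic bases overlap with LOC101054525 on the other strand, which gathered 516 counts over the 12 libraries beside 397023 for PGR, and the library kit and counting were not stated to keep strand.

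NR3C1 (chr5:143277931-143435512, minus strand) was the least abundant member, with 273 to 476 counts per library. It measured 9.26, 9.78 and 10.6 CPM in the control libraries, 11.8, 14.1 and 11.5 with Splice del, 12.3, 14.5 and 13.9 with C321fs and 13.01, 11.9 and 12.1 with A333fs. All 9 mutant libraries were above the highest control library. NR3C1 rose in each mutant line, with log2 fold changes of 0.34 ± 0.09 (Splice del, adjusted p = 0.0070), 0.46 ± 0.09 (C321fs, 0.0010) and 0.32 ± 0.10 (A333fs, 0.0087). Its exons have the lowest GC content of the members (39.9%, the 12.3rd percentile), and with the trend removed the values were 0.05, 0.24 and 0.04 with adjusted p of 0.68, 0.032 and 0.74, so that none passed. The rise in Splice del and A333fs cells also missed the threshold when control replicate 1 (0.29 and 0.27, adjusted p = 0.036 and 0.042) or control replicate 2 was left out (0.33 and 0.31, 0.025 and 0.029). In Splice del it was 0.37 (0.011) without Splice del replicate 1 and 0.24 (0.054) without Splice del replicate 2, and in A333fs cells it was 0.28 (0.037) without A333fs replicate 1 and 0.33 (0.018) without A333fs replicate 3. Leaving out Splice del replicate 1 or C321fs replicate 2 also took the adjusted p of the A333fs value over 0.01 (0.011 and 0.010). With DESeq2 the Splice del value was 0.32 and just missed the threshold (adjusted p = 0.0102).

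FOXA1 (chr14:37589552-37595120, minus strand), the pioneer factor, fell in C321fs and A333fs cells. It measured 466, 493 and 474 CPM in the control libraries, 448, 447 and 455 with Splice del, 383, 384 and 394 with C321fs and 360.3, 367 and 374 with A333fs. With TMM scaling the libraries of the 4 lines did not overlap, with control highest and A333fs lowest. Without TMM factors the control libraries (436 to 439 CPM) lay below those of Splice del (468 to 472 CPM). With TMM the log2 fold change against control was -0.30 ± 0.05 in C321fs (adjusted p = 7.95e-05) and -0.38 ± 0.05 in A333fs cells (5.1e-06). Splice del at -0.09 ± 0.05 did not pass (0.13), nor did A333fs against C321fs at -0.08 ± 0.05 (0.22). Without the trend the falls were -0.36 and -0.46, and Splice del passed at -0.17 ± 0.04 (adjusted p = 0.00060). FOXA1 exons have a GC content of 49.1%, close to the middle of tested genes.

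XBP1 (chr22:28794560-28800572, minus strand), the unfolded protein response factor that expands the secretory pathway, fell in A333fs cells. It measured 1968, 1994 and 1831 CPM in the control libraries, 1864, 1846 and 1900.3 with Splice del, 1759, 1767 and 1744 with C321fs and 1654, 1599 and 1716 with A333fs. Splice del overlapped with control, and every C321fs and A333fs library was below it. The log2 fold change was -0.22 ± 0.05 in A333fs (adjusted p = 0.0016), -0.14 ± 0.05 in C321fs (0.036) and -0.05 in Splice del cells (95% interval -0.16 to 0.06). Without A333fs replicate 2, the lowest library, the A333fs value was -0.16 (adjusted p = 0.043). With the trend taken out it was -0.29 and C321fs passed at -0.18 (adjusted p = 0.0012). The C321fs value also passed with DESeq2 (-0.15, adjusted p = 0.0085). Scaling by upper quartiles gave -0.11 in A333fs cells (0.094) and by library sizes alone -0.07 (0.19), where the median of all genes itself moved to 0.12 and 0.16.

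SPDEF (chr6:34537802-34556333, minus strand), an ETS factor of luminal and secretory epithelium, fell in every mutant line, and was lower in A333fs cells than in the other mutant lines. It measured 331, 387 and 349 CPM in the control libraries, 268, 269 and 283 with Splice del, 315, 264 and 263 with C321fs and 216, 204 and 219 with A333fs. Every mutant library was below the lowest control library, C321fs replicate 1 came nearest to control, and the A333fs libraries were below all others. The mean went from 356 ± 28.8 CPM in control to 213 ± 8.47 CPM in A333fs cells (SD, n = 3), a log2 fold change of -0.74 ± 0.07 (0.599-fold, adjusted p = 9.2e-07). The changes in Splice del and C321fs cells were -0.38 ± 0.07 (adjusted p = 0.00039) and -0.34 ± 0.07 (0.0012). SPDEF exons have a GC content of 64.5%, the 94.6th percentile, and with the trend removed the falls were -0.18, -0.19 and -0.34 (adjusted p = 0.0012, 0.00091 and 2.9e-06). They passed the p threshold but the call in A333fs cells, which needs a 1.5-fold change, ended.

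TFAP2A and TFAP2C encode paralogous AP-2 factors, AP-2 alpha and AP-2 gamma. TFAP2A (chr6:10396683-10419564, minus strand) measured 157, 171 and 158 CPM in the control libraries, 127, 126 and 133 with Splice del, 125, 127 and 131 with C321fs and 108, 114 and 106 with A333fs. All mutant libraries were below control, and the A333fs libraries were below the rest. TFAP2A changed by -0.33 ± 0.05 (Splice del, adjusted p = 6.7e-05), -0.35 ± 0.05 (C321fs, 7.85e-05) and -0.57 ± 0.05 (A333fs, 4.4e-07, 0.674-fold), the last just short of the 1.5-fold limit and beyond it without control replicate 1 or 3. With the trend removed the values were -0.35, -0.32 and -0.57. TFAP2A exons have a GC content of 50.8%. TFAP2A-AS1, on the other strand, shares 161 of its 4252 exonic bases and had 593 counts over the 12 libraries beside 49874 for TFAP2A.

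TFAP2C (chr20:56629302-56639282, plus strand) measured 141, 140.1 and 133 CPM in the control libraries, 111.8, 107.5 and 112.5 with Splice del, 131, 143 and 137 with C321fs and 123, 117 and 119 with A333fs. C321fs overlapped with control, whereas the Splice del libraries were the lowest and A333fs lay between. TFAP2C changed by -0.32 ± 0.05 in Splice del (adjusted p = 0.00010) and -0.20 ± 0.05 in A333fs cells (0.0029), and was at -0.01 in C321fs cells (95% interval -0.12 to 0.10). With the trend removed the values were -0.33 in Splice del, -0.21 in A333fs and -0.0039 in C321fs cells. The A333fs fall missed the threshold without control replicate 1 (-0.19, 0.013), control replicate 2 (-0.20, 0.011), A333fs replicate 2 (-0.15, 0.057) or A333fs replicate 3 (-0.20, 0.011), under upper-quartile scaling (-0.09, 0.16) and with library sizes alone (-0.06, 0.36). Another AP-2 gene, TFAP2B, chosen after its values were seen, had 2 to 5 counts per control library, 26 to 48 in Splice del, 8 to 11 in C321fs and 23 to 30 in A333fs libraries, so that it passed the filter through the lines where it was high and is given with no test. Its mean of 1.17 ± 0.257 CPM in Splice del cells remained far under the CPM of its paralogs.

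GRHL2, the grainyhead factor that maintains epithelial junction genes, did not pass in any line with TMM scaling and the trend left in. It measured 236, 228 and 235 CPM in the control libraries, 238, 234 and 243 with Splice del, 239, 261 and 261 with C321fs and 228, 226 and 238 with A333fs. The C321fs libraries were above control, 1 of them by a small margin, and the other lines overlapped with it. The log2 fold changes were 0.03 (95% interval -0.07 to 0.14), 0.12 (0.02 to 0.23, adjusted p = 0.051) and -0.01 (-0.12 to 0.09) for Splice del, C321fs and A333fs in that order. With the trend removed the C321fs value was again 0.12 and passed (adjusted p = 0.0078), although not with a replicate block added. It also passed under upper-quartile scaling (0.21, 0.0043) and, with library sizes alone, in C321fs (0.29, 0.00035) and Splice del cells (0.22, 0.0025). Without C321fs replicate 1, the lowest of the 3, the C321fs value was 0.16 and passed (0.0060).

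**Figure D3:**
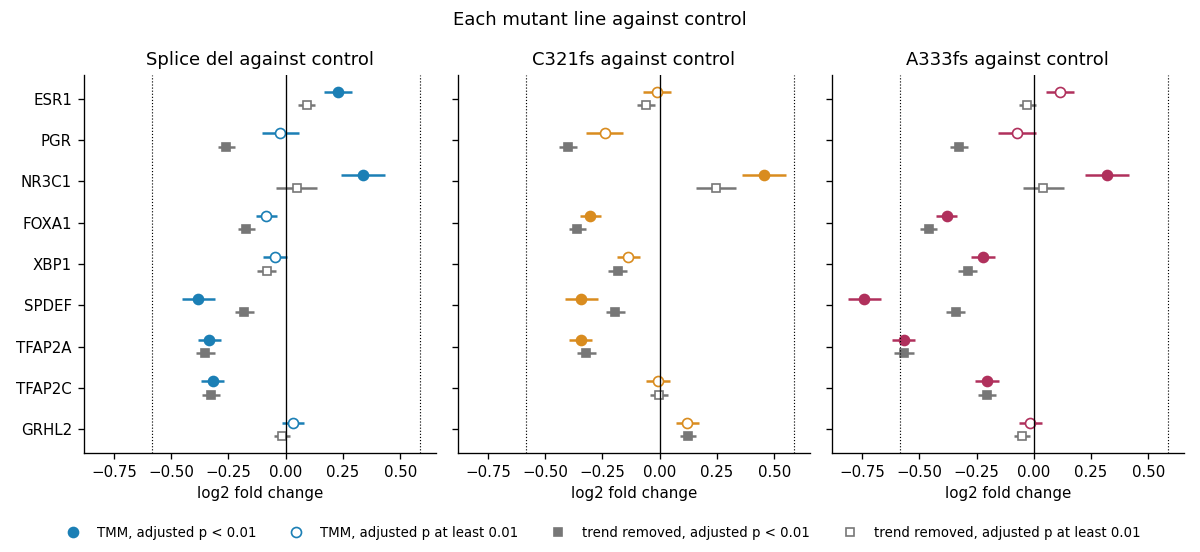
Log2 fold change against control with its SE, for the TMM fit (colored circles) and after removal of the GC and length trend (gray squares); filled symbols have an adjusted p under 0.01 and dotted lines mark a 1.5-fold change. Removing the trend moves PGR down and NR3C1 and SPDEF toward 0, and leaves TFAP2A, at -0.57 in A333fs cells by both, in place.

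**Figure D4:**
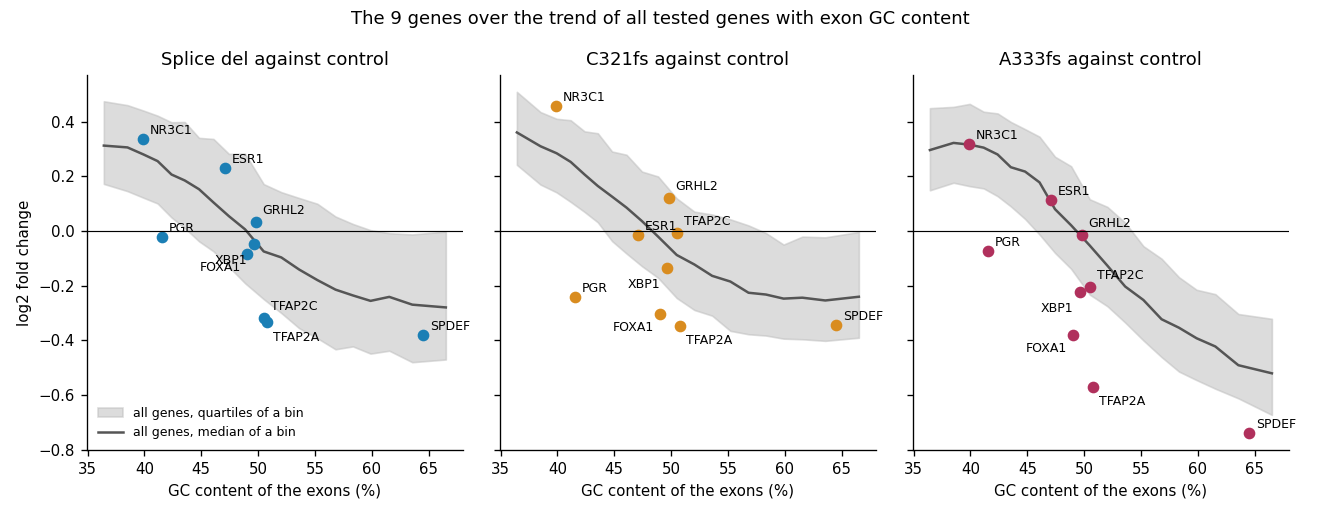
Log2 fold change against control over the GC content of the exons (percent), with the median and quartiles of all tested genes in 20 bins of equal size and the 9 genes as labeled points. TFAP2A and PGR in every panel, FOXA1 in the C321fs and A333fs panels, TFAP2C in the Splice del panel and SPDEF in the A333fs panel lie below the lower quartile of genes of like GC content. XBP1 in A333fs cells (-0.22) lies near that limit, between the lower quartiles of the bins beside it (-0.14 and -0.23). NR3C1 lies above the upper quartile in C321fs cells (0.46 against 0.41), whereas in A333fs cells, at 0.32, it lies on the median line.

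The promoters of FOXA1, SPDEF and TFAP2A, the members with the largest falls in A333fs cells, are shown for the GATA letters that they hold. The motifs GATAA, the core of the site that wild-type GATA3 is known for, and the shorter AGAT were searched on both strands. Each line has the 250 bases before a transcription start from RefSeq (build GRCh38.p14), 5′ to 3′, with matches of either motif in capitals (ATCT is AGAT on the other strand).
FOXA1 (chr14:37595250-37595499, minus strand): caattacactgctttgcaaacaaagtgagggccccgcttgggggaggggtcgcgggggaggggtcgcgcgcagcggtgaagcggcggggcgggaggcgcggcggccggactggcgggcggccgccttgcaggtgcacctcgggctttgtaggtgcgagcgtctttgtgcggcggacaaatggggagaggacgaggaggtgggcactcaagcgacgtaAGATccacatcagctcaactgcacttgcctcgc
SPDEF (chr6:34556330-34556579, minus strand): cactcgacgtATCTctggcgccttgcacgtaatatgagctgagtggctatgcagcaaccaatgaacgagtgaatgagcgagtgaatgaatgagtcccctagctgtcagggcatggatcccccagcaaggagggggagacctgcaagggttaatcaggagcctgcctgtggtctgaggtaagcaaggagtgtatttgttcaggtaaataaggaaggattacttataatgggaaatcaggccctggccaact
TFAP2A (chr6:10419660-10419909, minus strand): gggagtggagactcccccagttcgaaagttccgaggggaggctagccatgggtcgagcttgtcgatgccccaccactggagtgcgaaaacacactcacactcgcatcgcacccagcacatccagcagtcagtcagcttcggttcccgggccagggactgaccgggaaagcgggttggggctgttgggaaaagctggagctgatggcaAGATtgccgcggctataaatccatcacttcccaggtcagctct
None of the 3 holds GATAA. The table of promoters had windows of 300 bases, from 250 before to 50 after a start, for 7 of the 9 members. For each the window nearest to the 5′ end of the gene model of the count file was used. ESR1 had 6 windows, PGR 3, NR3C1 7, and XBP1 and TFAP2A 2 each. Their further windows do not enter the counts of members, which therefore do not cover every start of these genes. GATAA was in 0 of these 7 windows and in 22.7% of all 35116 windows, and AGAT, which AGATAA contains, was in 6 of 7 and in 69.9%. The estrogen response letters GGTCA were in the windows of ESR1, NR3C1, XBP1 and TFAP2A (4 of 7, 37.4% of all windows). The forkhead letters TGTTTAC, the AP-2 letters GCCNNNGGC, the grainyhead letters AACCGGTT, the glucocorticoid element letters TGTTCT and the XBP1 letters TGACGTGG were in none of the 7 and in 3.42%, 23.2%, 0.134%, 14.8% and 0.729% of all windows. Enhancers lie outside such windows, and these matches describe letters only.

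The mutant lines were then compared with each other. Control libraries are not compared here, but they share in the filter, the TMM factors and the estimate of spread. The trend over GC content was weaker (rho of -0.03, -0.30 and -0.31). Between Splice del and C321fs cells 2 members passed (6.32% of all genes): FOXA1 was higher in Splice del by 0.22 ± 0.05 (adjusted p = 0.0044) and TFAP2C was lower at -0.31 ± 0.05 (0.00070). Between A333fs and C321fs cells 2 passed (15.7%): SPDEF was lower in A333fs at -0.40 ± 0.07 (0.00080) and TFAP2A at -0.22 ± 0.05 (0.0047). Between A333fs and Splice del cells 3 passed (11.9%): FOXA1 was lower in A333fs at -0.30 ± 0.05 (0.00031), SPDEF at -0.36 ± 0.07 (0.0025) and TFAP2A at -0.24 ± 0.05 (0.0043). The edgeR test called 0 members with a 1.5-fold change in any of these comparisons, against 2.64%, 5.55% and 3% of all genes. DESeq2 also called 0, beside 256 genes up and 123 down, 368 and 381, and 147 and 247. By edgeR 4, 4 and 5 members had an unadjusted p under 0.05. For that limit the share of all genes was not counted, but 6.32%, 15.7% and 11.9% passed the stricter adjusted p of 0.01. These member counts are therefore not read as a result. The TFAP2A differences lay close to the threshold: against Splice del it was missed on leaving out any 1 of the 3 libraries of either line (-0.25 to -0.21, adjusted p = 0.013 to 0.027), and against C321fs on leaving out C321fs replicate 2 or 3 or any A333fs library (-0.23 to -0.20, 0.013 to 0.030). The FOXA1 difference between Splice del and C321fs was missed without any 1 Splice del library or C321fs replicate 2 (0.21 to 0.22, 0.021 to 0.024), and that of SPDEF between A333fs and Splice del without Splice del replicate 3 (-0.33, 0.014) or A333fs replicate 2 (-0.29, 0.013). Fitted on the libraries of the pair alone, FOXA1 between Splice del and C321fs (0.22, 0.020) and TFAP2A between A333fs and C321fs (-0.22, 0.021) missed it. In that fit XBP1 between A333fs and Splice del passed (-0.18, 0.0060).

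With the trend removed, TFAP2C differed between Splice del and C321fs by -0.32, FOXA1 between A333fs and Splice del by -0.29 and TFAP2A between A333fs and the other lines by -0.25 (C321fs) and -0.22 (Splice del), and all passed. The SPDEF differences shrank to -0.15 against C321fs (adjusted p = 0.011) and -0.16 against Splice del (0.0075). ESR1 was higher in Splice del than in C321fs cells by 0.24 ± 0.06, which missed the threshold (adjusted p = 0.015), and by 0.15 with the trend removed (0.0073). With the trend left in, this ESR1 difference passed with DESeq2 (0.24, 0.0028), with no filter on low counts (0.25, 0.0050) and without C321fs replicate 3 (0.29, 0.0067). Other differences that missed the threshold with the trend left in and passed with it removed were those of TFAP2C (-0.20, 0.00059) and GRHL2 (-0.17, 0.00087) between A333fs and C321fs, GRHL2 between Splice del and C321fs (-0.14, 0.0072, although not with a replicate block added) and XBP1 between A333fs and Splice del (-0.21, 0.00095). For PGR the intervals of the 3 differences were 0.04 to 0.39, -0.01 to 0.34 and -0.22 to 0.12.

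**Figure D5:**
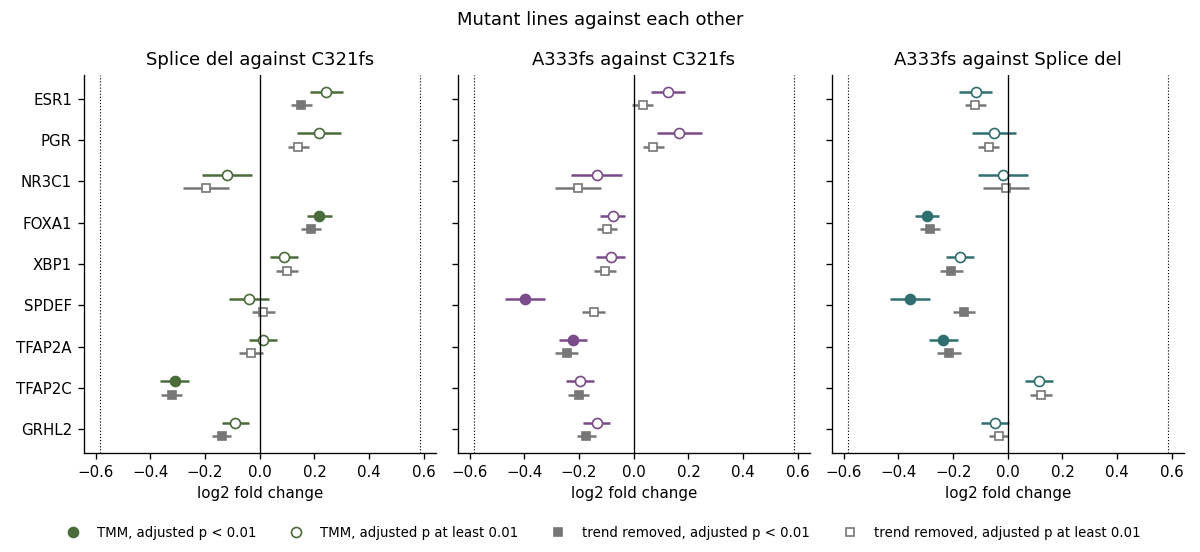
Log2 fold change between mutant lines with its SE, drawn as in the plot against control. FOXA1, SPDEF and TFAP2A are lower in A333fs than in Splice del cells, and TFAP2C is lower in Splice del than in C321fs cells (-0.31).

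The genes whose levels ran most like each member were found by Pearson's r of log2 CPM over the 12 libraries, which form 4 lines of 3, so that r follows the line means. FOXA1 ran closest to PREX1 (r = 0.983) and CBFA2T3 (0.978), SPDEF to GIT1 (0.993) and IGFBP4 (0.993), TFAP2A to HID1 (0.984) and NFIC (0.983), and XBP1 to BNIPL (0.970) and DAP (0.960). For SPDEF 887 genes had an r over 0.9 and for TFAP2A 638, whereas PGR had 11 and GRHL2 3. The 4 genes closest to SPDEF and TFAP2A have exon GC contents of 59.3% to 62.7%. ESR1 ran closest to LRRIQ4 (0.966) and CERS6 (0.955), PGR to SP1 (0.943) and KIAA2018 (0.940), NR3C1 to AIDA (0.954) and MASTL (0.942), TFAP2C to FTSJ2 (0.958) and TUBA4A (0.949), and GRHL2 to AHNAK2 (0.934) and SLC25A43 (0.920). Among the members themselves the highest r was between SPDEF and TFAP2A (0.931), then FOXA1 and XBP1 (0.918), and the lowest was between ESR1 and TFAP2C (-0.82).

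Other genes of these pathways were taken from lists, with the calls of all genes above as background where the trend was left in. Removing the trend also lowered the calls against control over all 14789 genes. Splice del went from 1588 calls to 688 up and 345 down, and C321fs from 1018 to 473 and 190. A333fs went from 1815 to 571 and 234. Counts cover the genes that passed the filter on low counts, which a gene can do through 1 line alone. Of 33 nuclear receptors listed 29 were tested, with 4 called up and 1 down for Splice del, 0 and 1 for C321fs, and 7 and 5 for A333fs, with median log2 fold changes of -0.02, -0.07 and -0.13. NR2F1, an orphan receptor also known as COUP-TFI, went from 8.05 ± 0.485 CPM in control to 18.6 ± 0.514 in Splice del (1.21, adjusted p = 8.1e-09) and 20.3 ± 0.150 in A333fs cells (1.34, 2.3e-09) and was at 9.37 ± 0.673 CPM in C321fs cells (0.22, 0.031, or 0.37 and 0.00071 with the trend removed). NR5A2, a receptor related to steroidogenic factor, rose by 1.12, 0.40 and 0.81, which became 0.81, 0.13 (adjusted p = 0.11) and 0.48 with the trend removed. RARA, the retinoic acid receptor alpha, changed by -0.72, -0.66 and -0.99 in the 3 lines, and with the trend removed by -0.54, -0.47 and -0.57, short of the fold limit. In that fit 3, 0 and 4 receptors were called up and 0 down. RARA exons share 672 bases with RARA-AS1, which had 163 counts. ESR2, the estrogen receptor beta, was chosen after its values were seen. At 3.64 ± 0.235 CPM in control, ESR2 rose in Splice del and A333fs cells (0.54 and 0.73, adjusted p = 0.00079 and 4.0e-05).

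All 32 coactivators and corepressors were tested. The calls were 2 up and 2 down for Splice del, 1 up and 4 down for C321fs, and 1 up and 3 down for A333fs, with medians of -0.12, -0.24 and -0.11 (with the trend removed 1 up and 1 down, 0 and 1, and 1 and 1). CITED2, a coactivator of AP-2 factors among others, rose in Splice del (0.67) and A333fs (1.26) and fell in C321fs cells (-0.36, adjusted p = 0.00062). CITED1, which binds estrogen receptor, fell in C321fs (-0.94) and A333fs cells (-1.02) and was at 0.00 in Splice del cells (-0.78, -0.68 and 0.21 with the trend removed). PELP1, a receptor scaffold, changed by -0.75, -0.69 and -0.80, or by -0.60, -0.52 and -0.45 with the trend removed, where only the first reached the fold limit. Of the 18 chaperones and cochaperones, which hold receptors in a state able to bind hormone, 0 were called up, and 1, 0 and 2 were called down (medians -0.18, -0.24 and -0.03; 1, 0 and 1 down with the trend removed). In C321fs cells 11 of the 18 chaperones passed the p threshold without the fold, beside 36.8% of all genes. FKBP4, an immunophilin of the receptor complex, changed by -0.67 (called), -0.58 and -0.66 (called), and STUB1, a ubiquitin ligase, by -0.56, -0.37 and -0.67, although 667 of its 1695 exonic bases are shared with JMJD8 and with the trend removed it was not called.

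Targets of the receptors moved in both directions. Of 26 estrogen receptor targets Splice del had 5 called up and 2 down, C321fs 5 and 3, and A333fs 6 and 4 (medians 0.06, -0.14 and -0.19), and with the trend removed 5, 4 and 4 were up and 2, 1 and 4 down. PRSS23, a secreted protease, rose by 2.40, 1.76 and 2.12, with 1399 of its 11431 exonic bases shared with FZD4, and MYC changed by -1.02, -0.66 and -0.92 (-0.95, -0.57 and -0.79 with the trend removed). AREG, an EGF receptor ligand, rose in C321fs cells (0.90), fell in A333fs cells (-0.24, adjusted p = 0.0071, or -0.45 with the trend removed) and was at -0.06 in Splice del cells. GREB1, a coactivator gene strongly induced by estrogen and chosen after its values were seen, was at 497 ± 38.9 CPM in control and did not pass in any line (0.05, -0.02 and -0.18), but in C321fs cells it turned to 0.15 and passed with the trend removed (adjusted p = 0.0077). Of 25 progesterone and glucocorticoid receptor targets 23 were tested, and 3, 4 and 4 were called up and 1, 1 and 2 down (medians 0.10, 0.19 and -0.01), or 3, 4 and 3 up and 1, 0 and 1 down with the trend removed. KLF9, a transcription factor gene responsive to glucocorticoid, rose by 1.01, 0.88 and 0.63, CISH, a suppressor of cytokine signaling, changed by -0.77, -0.63 and -0.74, and the progesterone-induced ligand WNT4 changed by -0.38, -0.30 and -0.90. With the trend taken out these were 0.85, 0.78 and 0.44 for KLF9, -0.61, -0.49 and -0.45 for CISH, and -0.24, -0.17 (adjusted p = 0.042) and -0.63 for WNT4.

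Of 28 XBP1 targets and protein folding genes of the endoplasmic reticulum 27 were tested, with 3 called up and 0 down for Splice del, 0 either way for C321fs, and 1 up and 1 down for A333fs, with medians of 0.14, 0.05 and 0.17, and with the trend removed 2, 0 and 0 were called up and 0 down. In C321fs cells 10 of the 27 passed the p threshold without the fold, beside 36.8% of all genes. AGR2, a disulfide isomerase of secretory epithelium, rose by 0.99, 0.52 and 0.87 from 1022 ± 64.7 CPM in control, or by 0.81, 0.32 and 0.55 with the trend removed. KDELR3, a retrieval receptor, rose by 0.96, 0.54 and 0.48, which became 0.77, 0.35 and 0.20 with the trend removed (the last at an adjusted p of 0.057), and DNAJC3, a cochaperone of the endoplasmic reticulum, by 0.62, 0.37 and 0.51, which became 0.30, 0.08 (0.20) and 0.17. Only the spliced form of XBP1 RNA makes the active factor, and the counts do not separate it.

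Relatives of the luminal factors and the luminal markers were mixed as well. Of 38 relatives 31 were tested, with 3 called up and 2 down for Splice del, 1 and 0 for C321fs, and 3 and 3 for A333fs (medians 0.04, -0.09 and -0.11), or 2, 1 and 2 up and 3, 0 and 2 down with the trend removed. In both fits the calls up in Splice del and A333fs cells include TFAP2B. It passed the filter through those lines, so its calls carry no weight. EHF, an ETS factor of epithelium like SPDEF, rose by 0.76, 0.42 and 0.65, or 0.46, 0.15 and 0.32 with the trend removed. FOXC1, a forkhead factor of basal cells, fell in Splice del (-0.85) and A333fs cells (-0.93) and was at -0.13 in C321fs cells. Of 28 luminal markers tested, 6, 1 and 6 were called up and 3 in each line were called down (medians -0.01, -0.12 and -0.10), and with the trend removed 4, 1 and 3 up and 2, 3 and 1 down. PIP, a secreted apocrine protein, rose by 1.83, 1.24 and 1.03, and TFF3, a trefoil peptide, rose in Splice del and A333fs cells (1.36 and 0.61) and was at -0.28 in C321fs cells (adjusted p = 0.034). KRT8, a luminal keratin chosen after its values were seen, fell from 7518 ± 836 CPM in control, by -1.02, -0.84 and -0.49, or by -0.86, -0.70 and -0.20 with the trend removed.

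Of the 22 basal markers 15 were tested, and 0, 1 and 2 were called up and 2, 1 and 3 down (medians 0.17, 0.05 and 0.18). Those called up, named after their values were seen, were TP63 in C321fs cells and KRT14 and ACTA2 in A333fs cells. With the trend removed 0, 0 and 2 were called up and 1, 0 and 1 down. Counts per library of KRT14 (5.25 in A333fs cells) and TP63 (1.34 in C321fs cells) are not given here. Either gene may have passed the filter through the line where it was high, so these calls carry no weight. TAGLN fell in A333fs cells (-0.78, or -0.48 with the trend removed, short of the fold limit) and ITGB4 in each mutant line (-0.63, -0.62 and -0.69), or by -0.44, -0.41 and -0.27 with the trend removed. Only 7 of 21 fibroblast and endothelial markers and 5 of 19 leukocyte markers passed the filter, DCN, LUM and ITGAM through the lines where they were high, so no count of calls is given for these lists. DCN, the fibroblast proteoglycan decorin, had 1 to 3 counts per control library, 0 to 1 in C321fs, 164 to 225 in Splice del and 378 to 419 in A333fs libraries, and LUM had 3 to 7, 6 to 15, 37 to 89 and 138 to 176 in the same order. COL3A1, another fibroblast gene, changed by -1.09, -1.03 and -1.65. Of the leukocyte markers ITGAM had 0 to 1, 1 to 3, 19 to 26 and 44 to 49 counts in control, C321fs, Splice del and A333fs libraries, and CD14 had 19 to 22, 23 to 31, 72 to 103 and 39 to 46. At least 12 of the 21 fibroblast and endothelial markers were at or under 3 counts per library in each line. Whether these cell type markers bear on the levels of the 9 genes was not tested.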

How the data were processed

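RNA from 12 libraries of 4 T47D lines was sequenced in pairs, and the authors deposited 1 table of raw read counts per gene. The file header names featureCounts 1.6.4 and hg38, and the count totals of each library served as its depth. The aligner was not settled, since the header and the submitters' processing notes name different programs. The ChIP samples of the series were not analysed here.

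Counts were filtered by line (filterByExpr), scaled by TMM and tested with edgeR 4.0.16 (R 4.3.3) by quasi-likelihood, in 1 fit over 12 libraries. P-values were adjusted by Benjamini-Hochberg over 14789 genes. Genes passed at an adjusted p under 0.01 and were called with a fold change over 1.5 as well. The trend of each library over exon GC content and length was removed with a loess fit in R (span 0.3) as an alternative. DESeq2 1.42.0, other scalings, filters and limits, a replicate block and leaving out each library were the others. The 3 comparisons with control share the control libraries, and so do not stand alone. Replicate numbers did not pair the libraries. On simulated counts for A333fs against control (14628 genes), 198 of 200 genes changed 2-fold were recovered with 2 false calls. The simulated counts held no trend over GC content and no smaller changes. They therefore do not measure false calls in the real data or the recovery of smaller changes.

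The 9 genes and the gene lists were chosen with earlier results of these data known. Named were the 9 genes, GATA3, the 2 genes of highest r with each, and from each list up to 3 genes of smallest F-test p among those called against control; genes outside this rule are marked as chosen after their values were seen. Promoter sequences are RefSeq's.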

Additional observations from a re-analysis of the deposited data

Results flagged for a closer look

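Among the 9 genes, 7 effects differed between mutant lines by the test of the difference itself. Of these 2 were between Splice del and C321fs (6.32% of all genes passed), 2 between A333fs and C321fs (15.7%) and 3 between A333fs and Splice del (11.9%). FOXA1 was higher in Splice del than in C321fs cells by 0.22 on the log2 scale and lower in A333fs than in Splice del cells (-0.30). TFAP2C was lower in Splice del than in C321fs cells (-0.31). SPDEF was lower in A333fs cells than in C321fs (-0.40) and Splice del cells (-0.36), and TFAP2A likewise (-0.22 and -0.24). Both TFAP2A differences, that of FOXA1 between Splice del and C321fs and that of SPDEF between A333fs and Splice del missed the threshold on leaving out 1 of several libraries. That of SPDEF between A333fs and C321fs was -0.15 with the GC and length trend removed (adjusted p = 0.011 by edgeR).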

How the results depend on the processing

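No value that passed in either fit changed direction, whereas 45 of 1242 member values under the alternatives changed sign where neither passed, among them FOXA1 and XBP1 in Splice del cells with library sizes alone (0.10 and 0.14). With library sizes alone, 1 member (NR3C1) was called in C321fs cells against control, beside 1518 genes up and 110 down of 14789. Without a fold change limit 5, 4 and 6 members were called in Splice del, C321fs and A333fs cells against control (41.1%, 36.8% and 47.4% of all genes), and 2, 2 and 3 (6.32%, 15.7% and 11.9%) in Splice del against C321fs, A333fs against C321fs and A333fs against Splice del. In A333fs cells against control 0 members were called when tested against a 1.5-fold change (234 genes up and 119 down of 14789). With the GC and length trend removed 0 were called as well (571 and 234), also with a replicate block added (566 and 238). Leaving out 1 library gave 1 to 2 calls there (2, SPDEF and TFAP2A, without control replicate 1 or 3), and 4 to 8 members that differ among the lines (4 without control replicate 1 or 2; 56.2% of all genes differ with no library left out). The replicate block, where numbers did not pair the libraries (mean correlation -0.0092, over 0.1 in 2 of 18 pairs), gave 0, 0 and 1 calls against control and 6 members that differ among the lines. Over all genes that block gave 893 calls up and 668 down, 662 and 337, and 802 and 1006 against control. Library sizes alone moved the median of all genes to 0.22, 0.19 and 0.16 against control, and SPDEF, TFAP2A and TFAP2C in Splice del cells then missed the threshold (-0.19, -0.15 and -0.13), as did FOXA1 and SPDEF in C321fs cells (-0.14 and -0.17) and XBP1 and TFAP2C in A333fs cells (-0.07 and -0.06). ESR1 in A333fs (0.26) and GRHL2 in Splice del and C321fs cells (0.22 and 0.29) then passed. The cause was not tested. Depth limits NR3C1 most, at 273 to 476 counts per library.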
